A study of Mus musculus with 9 samples.

Results

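Among 15975 bone marrow LSK cells (Lin- cKit+ Sca1+ cells, the sorted fraction that holds blood stem cells and early progenitors), 273 cells, or 1.71%, met a rule on 4 RNAs. These were the RNAs of the granulocyte protease genes Elane, Ctsg and Prtn3 and of Ms4a3. At least 3 of them were found in each of the 273 cells, and all 4 in 95. The cells were chosen by these RNAs alone. A cell was kept when it had 1000 to 40000 unique molecular identifiers (UMIs, each standing for 1 captured RNA molecule), at most 6000 detected genes and at most 10% of UMIs from mitochondrial genes. It was counted as a member when at least 3 of the 4 genes had at least 1 UMI and the 4 genes together had at least 5. Since these UMIs chose the cells, the levels of the 4 genes are given as a description and were not tested.

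Elane, Prtn3 and Ctsg encode neutrophil elastase, proteinase 3 and cathepsin G, the serine proteases that granulocyte precursors pack into their first, azurophil granules together with myeloperoxidase (Mpo). Ms4a3 encodes a membrane protein switched on when progenitors commit to granulocytes and monocytes. The transcription factors Cebpa and Spi1 (PU.1) open this program in early progenitors, Cebpe and Gfi1 carry it on in the granulocyte branch, and Irf8 and Klf4 act in the branch to monocytes and dendritic cells. LSK cells lie before this commitment in the usual scheme of blood formation, and committed granulocyte-monocyte progenitors are known for lacking the Sca-1 surface protein, encoded by Ly6a.

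The regulatory sequence just upstream of the protease genes is shown because their RNAs chose the cells. Each sequence holds the 250 bases before the RefSeq start of the gene in build GRCm38.p6, 5′ to 3′ on the coding strand, at chr10:79886062-79886311 (plus strand) for Elane, chr10:79879417-79879666 (plus strand) for Prtn3, which lies next to Elane, and chr14:56102575-56102824 (minus strand) for Ctsg. Capitals mark the letters GAGGAA, the core of a PU.1 binding motif, searched on both strands.
Elane: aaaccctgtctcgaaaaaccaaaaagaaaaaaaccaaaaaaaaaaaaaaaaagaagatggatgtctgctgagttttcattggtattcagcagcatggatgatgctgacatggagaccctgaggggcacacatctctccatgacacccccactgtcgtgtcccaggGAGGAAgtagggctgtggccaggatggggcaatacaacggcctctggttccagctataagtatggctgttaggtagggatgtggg
Prtn3: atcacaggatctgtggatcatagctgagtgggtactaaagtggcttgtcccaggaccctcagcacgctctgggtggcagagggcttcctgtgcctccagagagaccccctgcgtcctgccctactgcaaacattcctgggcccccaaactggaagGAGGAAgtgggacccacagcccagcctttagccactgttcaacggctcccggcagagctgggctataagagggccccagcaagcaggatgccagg
Ctsg: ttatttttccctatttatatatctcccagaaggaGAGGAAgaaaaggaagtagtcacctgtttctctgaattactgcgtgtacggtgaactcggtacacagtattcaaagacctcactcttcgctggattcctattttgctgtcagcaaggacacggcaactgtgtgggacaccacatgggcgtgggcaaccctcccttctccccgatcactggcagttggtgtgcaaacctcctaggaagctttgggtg
Each of the 3 windows held these letters in 1 place, starting 85 bases before the start of Elane, 95 before that of Prtn3 and 216 before that of Ctsg. The same window of Mpo held them in 2 places and that of Ms4a3 in none. Of 27025 RefSeq mouse promoters of this length, 23.1% held them, so a match is common. A C/EBP motif written as TTGCNNAA was in none of the 5 windows and in 9.55% of all promoters.

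RNA of single cells was counted in 9 libraries, 3 each of young, aged and CASIN C57BL/6 mice, with 10x Genomics 3′ v3 chemistry. Young mice were 10 to 12 weeks old, and aged and CASIN mice were older than 80 weeks. CASIN, an inhibitor of the small GTPase Cdc42, was injected into the abdomen of aged mice at 25 mg/kg in cyclodextrin 4 times at intervals of 24 h, and the young and aged controls received cyclodextrin alone. Cells of all groups were taken on day 5, sorted, frozen alive and thawed before capture, and the labels do not give the number of mice behind a library, so p-values measure only the spread between these samples. The first 2 young and the first 2 CASIN libraries and aged replicate 1 were sequenced as batch 1, and the remaining 4, among them aged replicates 2 and 3, as batch 2.

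The libraries held between 19237354 and 42780953 UMIs, and the members summed to between 366250 UMIs in CASIN replicate 3 and 1005114 in aged replicate 2. Some barcode sequences occurred in several libraries. Of 31889 barcode sequences, 318 were found in more than 1 library, as 729 pairs of libraries of the same batch and 71 pairs of different batches. A kept cell is called a low copy here when the same barcode had at least 5 times as many UMIs in another library of its batch. There were 89 low copies among the kept cells, and 38 of them were members, 35 in batch 1 and 3 in batch 2. These 38 members had 1019 to 2604 UMIs, 0.903% to 3.40% of those of the barcode they shared, and traced to 15 source barcodes that all met the marker rule themselves. In 35 of the 38 cases the source was above the limit of 40000 UMIs. Without low copies 235 members remained, 20, 30 and 19 in the young, 23, 41 and 23 in the aged and 27, 38 and 14 in the CASIN libraries. Low copies gave at most 2.66% of a library's summed member UMIs, but more of the UMIs of the rule genes in some libraries, as given with the levels of Elane below. Scrublet, a doublet caller, marked 80 kept cells and 2 members. No cell was removed as a doublet, except in an alternative.

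The label of the cells as Elane progenitors held for a part of them. No Elane UMI was found in 106 of the 273 members, 38.8%, or 45.1% of the 235 without low copies. These 106 cells all had Ctsg, Prtn3 and Ms4a3, and 83 of them had a single Ms4a3 UMI. All 4 genes were found in 95 members, Elane with Ctsg and Prtn3 in 66, and Elane with Prtn3 and Ms4a3 in 6. Prtn3 added little to the choice, because 89.3% of the 15702 other cells had it too, between 78.0% and 97.9% by library. Ctsg was found in 10.8%, Ms4a3 in 1.83% and Elane in 1.28% of the other cells. As a measure of background, 5171 cells with at least 3 of the stem cell genes Procr, Mecom, Hlf and Fgd5 (median 11726 UMIs) had Elane in 1.62%, Ms4a3 in 1.59%, Ctsg in 4.43% and Prtn3 in 95.1% of cells.

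Depth entered the choice as well. The members' median was 21939 UMIs, or 24187 without low copies, against 11637 in the other cells, and they had a median of 4397 detected genes against 3187. The sum of the 4 genes ranged from 5 to 2089 UMIs with a median of 34. Just inside the limit lay 27 members with a sum of 5 to 9. Just outside lay 3 cells with at least 3 genes but a sum under 5, and 1740 cells with 2 of the genes and a sum of at least 5.

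**Figure D1:**
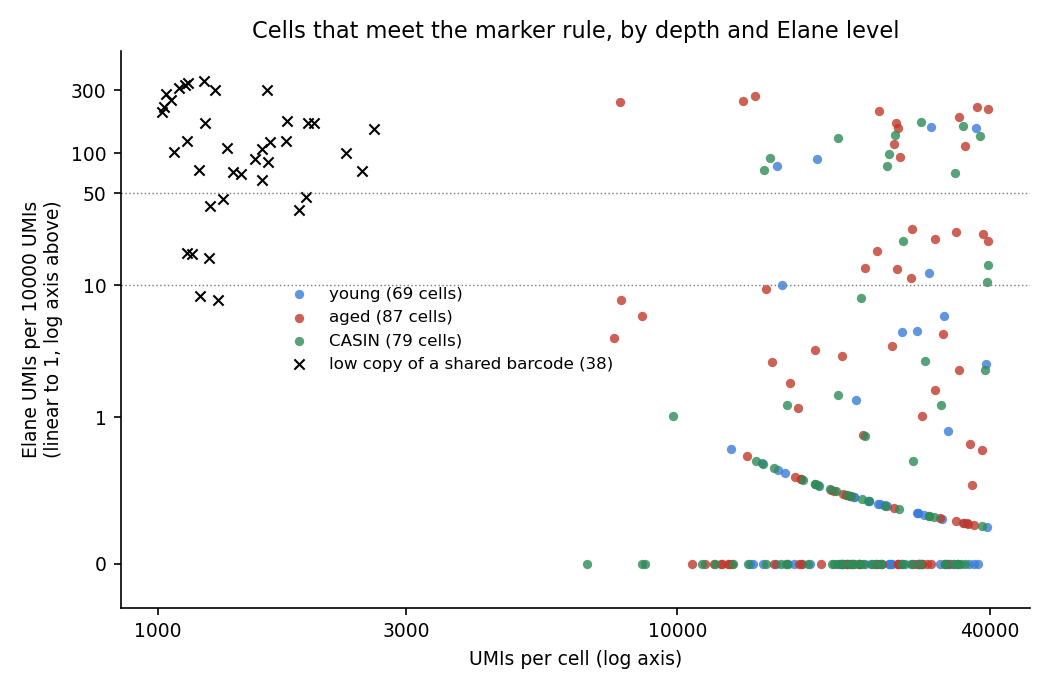
Elane UMIs per 10000 UMIs (vertical, linear to 1 and logarithmic above) against UMIs per cell (horizontal, logarithmic) for the 273 members, colored by group, with the 38 low copies as crosses and dotted lines at 10 and 50. The low copies lie at the left, all below 3000 UMIs, 26 other cells and 29 of the 38 low copies stand above 50, and 106 cells lie at 0.

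Elane separated the members into unlike cells. Of the 235 members without low copies, 26 had at least 50 Elane UMIs per 10000, 14 had 10 to 50, 89 had fewer than 10 and 106 had none. These bounds were drawn after the values were seen and serve as a description only. No cell lay between 0.7 and 1.4 times the bound of 50, whereas 9 cells lay that close to the bound of 10. In the 26 cells Elane alone made up 0.711% to 2.72% of all UMIs (109 to 866 UMIs a cell), and they held 90.8% of the Elane UMIs of all 235. They were 0, 1 and 3 cells in the young, 1, 5 and 6 in the aged and 0, 5 and 5 in the CASIN libraries. Young replicate 1 and CASIN replicate 1, both of batch 1, had none.

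In the 26 cells of highest Elane, several other genes of the first granules stood high. All values in this and the next paragraph are counts per 1000000 (CPM) of the UMIs pooled over the cells of a class, over all libraries, and the classes differ in their mix of libraries and batches. Mpo, the peroxidase of azurophil granules, was at 8873 CPM, against 297 in the members without Elane. Prss57, a further granule serine protease, was at 418 against 27.1, Cst7, an inhibitor of granule proteases, at 270 against 24.2, and the granule membrane gene Cd63 at 923 against 211. The granule genes Ctsc (22.0 against 43.9) and Lyz2 (317 against 303) did not stand high in these cells. Cebpe, which drives the later steps of granulocyte maturation, was found in 23 of the 26 cells, and in 1 of the 106 without Elane. Gfi1, its partner in the granulocyte branch, was found in 80.8% and 29.2% of the same cells. Fcnb, a ficolin of early granulocytes, was found in 16 of the 26 and in none of the 106.
Genes of later granules and mature neutrophils were uneven in the same 26 cells. S100a8, of the calgranulin pair, was found in 22 of them with a median of 62.5 UMIs a cell, its partner S100a9 in 16 and Lcn2, lipocalin 2 of secondary granules, in 15. Chil3 was found in 8 cells, and Camp and Ngp in 6 each. Ltf, lactoferrin of secondary granules, and Ly6g, the neutrophil surface marker, had no UMI (3 UMIs would be 4.40 CPM). A single cell gave 95.7% of the Camp and 85.1% of the Ngp UMIs. That cell, of aged replicate 3, had 2809 S100a8, 3099 S100a9 and 1164 Camp UMIs, and it gave 48.8% of the S100a8 UMIs of the class.

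Stem and multipotent progenitor genes ran the other way. Ly6a, the gene of the Sca-1 protein used for the sort, was at 52.2 CPM in the members without Elane, at 46.5 in those under 10, at 25.7 in those of 10 to 50, and had no UMI in the 26 cells of highest Elane. The adhesion gene Cd34 was at 366, 306, 154 and 39.6 in the same order, and the receptor gene Kit, whose protein was also sorted on, at 123, 85.7, 53.8 and 54.3. Flt3, the receptor of multipotent and lymphoid progenitors, was at 70.2, 82.5, 30.4 and 1.47 in that order, the last a single UMI. The enzyme gene Dntt of lymphoid progenitors was at 98.6, 156, 9.36 and the same 1.47. Both were thus highest in the members under 10. Itgam, which encodes the lineage marker CD11b, was found in 13 of the 26 cells.

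Most of the 14 cells of 10 to 50 Elane UMIs carried monocyte genes, with Irf8, Csf1r and Ly86 found in 12 cells each and Ccr2 in 10. Of the granulocyte factors, Gfi1 was found in 3 and Cebpa in 11. By library, 7 of the 14 were of aged replicate 2. Among the 14 was also the young replicate 2 cell with 204 Prss34 UMIs, described below. Irf8, the factor of monocyte and dendritic fate, was at 592 CPM in the 14 cells and at 29.4 in the cells of highest Elane. Klf4 was at 342 and 5.87, the receptor gene Csf1r at 67.8 and 7.34, Ly86 at 187 and 14.7, and Ccr2, the receptor by which monocytes leave marrow, at 126 and 2.94. Ctsc, the protease that activates the granule proteases, was at 232 against 22.0. Lyz2, lysozyme, was at 2669 against 317. Cebpe was found in 2 of these 14 cells. Ly6c2, a surface gene of monocytes and granulocyte progenitors, was high in both, at 1579 and 1067. The summed level of mitotic genes was lower at higher Elane: the 18 genes of the G2 and mitosis list summed to 1971 CPM without Elane, 1573 below 10, 1181 at 10 to 50 and 834 above. The S phase list was lower only in the highest class, with sums of 2176, 2246, 2316 and 1415 CPM in the same order.

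**Figure D2:**
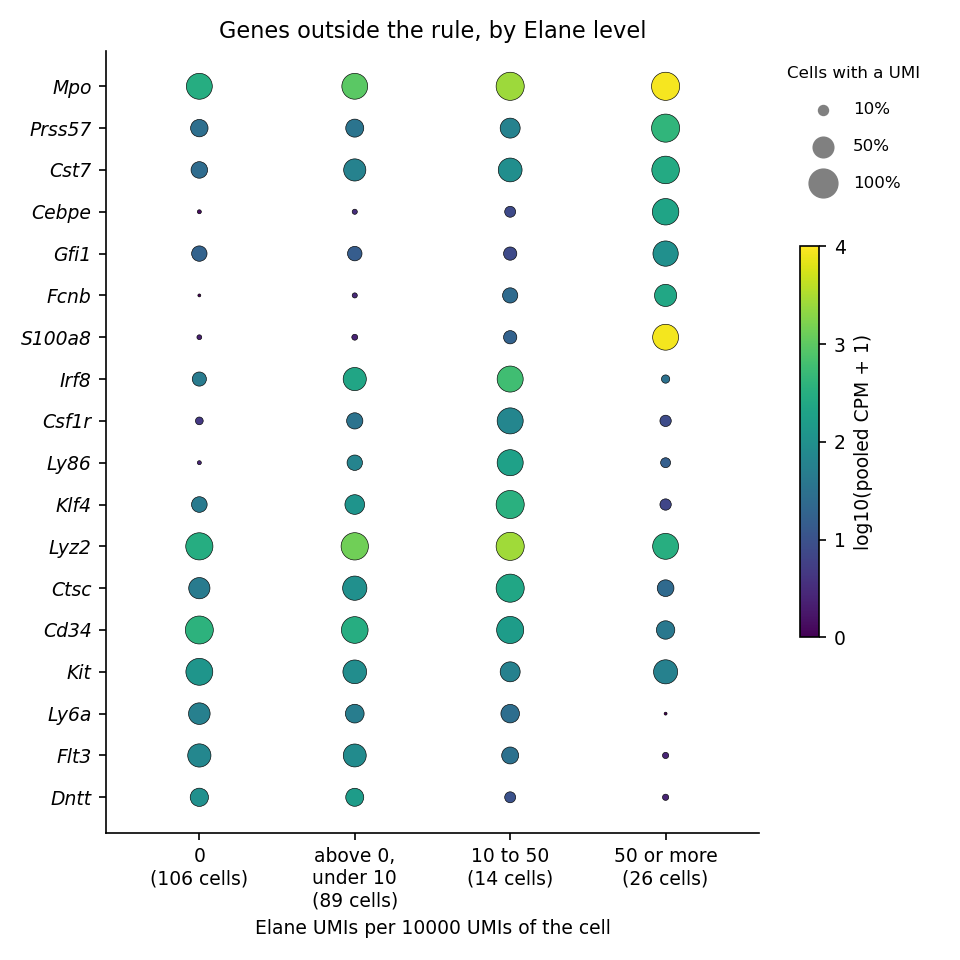
Pooled level (color, log10 of CPM plus 1) and share of cells with a UMI (dot size) of 18 genes that the rule did not use, in members without low copies at 4 levels of Elane (horizontal). Mpo, Prss57, Cst7, Cebpe, Gfi1, Fcnb and S100a8 are strongest in the 26 cells at the right, Irf8, Csf1r, Ly86, Klf4, Lyz2 and Ctsc in the 14 cells beside them, and Cd34, Kit and Ly6a in the 106 cells at the left.

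Whether such cells were more or less frequent with age or after CASIN was asked first. In young libraries they were 1.39%, 1.85% and 1.57% of kept cells, in aged libraries 1.78%, 2.48% and 1.35%, and in CASIN libraries 2.59%, 2.50% and 0.615%. The 95% Wilson interval, which covers counting error only, was 1.81% to 3.70% in CASIN replicate 1, the highest library, and 0.373% to 1.01% in CASIN replicate 3, the lowest. The groups overlapped. The mean was 1.60% ± 0.234 in young, 1.87% ± 0.570 in aged and 1.90% ± 1.12 in CASIN (SD, n = 3). The differences were 0.270 percentage points between aged and young (p = 0.7), 0.0272 between CASIN and aged (p = 0.9) and 0.297 between CASIN and young (p = 0.8), in two-sided exact permutation tests that cannot give a p under 0.1. Within batches, the CASIN minus aged difference was 0.760 in batch 1 and -1.30 in batch 2, and the aged minus young difference was 0.162 and 0.351. CASIN minus young was 0.923 and -0.953. No difference in share was detectable with 3 libraries a group. Without low copies the differences were 0.440 (p = 0.5), -0.0236 (p = 1) and 0.417 (p = 0.5), by the same exact tests.

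**Figure D3:**
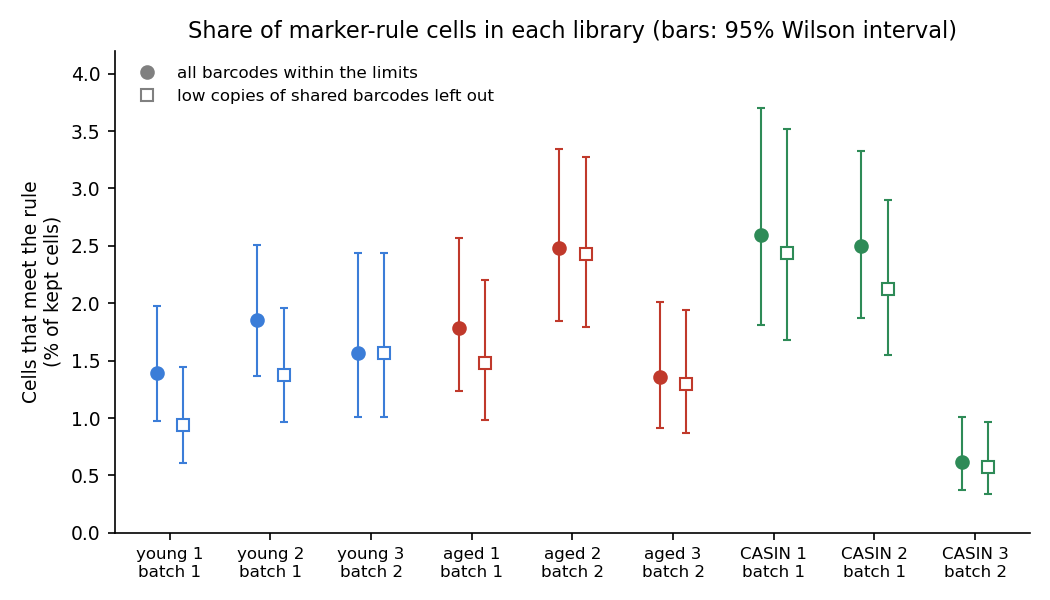
Members as a percent of kept cells in each of the 9 libraries (vertical), with 95% Wilson intervals, for all kept barcodes (filled circles) and without low copies of shared barcodes (open squares), colored by group. The 3 groups overlap, and CASIN replicate 3 is the lowest at 0.615%.

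The levels of the 4 chosen genes varied more between libraries than the shares did. Elane in the summed members was at 371, 1076 and 1836 CPM in young, at 1855, 2988 and 4377 in aged and at 85.6, 2565 and 4188 in CASIN libraries. Without low copies, young replicate 1 fell from 371 to 44.3 and CASIN replicate 1 from 85.6 to 23.5. These are the libraries with none of the 26 cells of highest Elane. Without low copies, members with no Elane were 44.7% to 70.4% of the members in the libraries of batch 1 and 14.3% to 34.1% in those of batch 2, and the batches did not overlap. Batch 2 also had less Prtn3 in the other cells, 258 to 275 CPM against 487 to 925 in batch 1. Whether this difference between batches lies in the cells sorted or in the libraries was not tested.

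Compared with all other kept cells of the same library, the members had more granulocyte and monocyte RNA, more RNA of cycling cells and less stem cell RNA. Because the rule chose the cells by this contrast, the values are a description, and the share of genes past the threshold of edgeR's quasi-likelihood test, 39.2% of 13578 (14.5% higher and 24.7% lower), is printed for scale only. With cells thinned to 4000 UMIs, which sets members and other cells at the same depth and left 14 young, 32 aged and 26 CASIN members by the same rule, 289 of 10978 genes were past it as higher and 2868 as lower, in place of 1974 and 3350. Mpo was at 432 to 4087 CPM in members and 20.1 to 136 in other cells, a log2 difference of 4.72 (SE 0.31, 9 libraries). No library overlapped between the classes. Cebpe was at 6.90 to 66.1 against 0.0465 to 0.653, and Cebpa at 34.5 to 75.0 against 10.1 to 29.4. Gfi1 differed by 1.41 and Irf8 by 2.35 on the log2 scale. Of the granulocyte surface and secreted products, Hp (haptoglobin) was higher by 6.81, Anxa3 by 3.56 and Cst7 by 2.75. Of the monocyte genes, F13a1 was higher by 6.73, Igsf6 by 6.65, Ly6c2 by 4.75, Clec12a by 3.12 and Ms4a6c by 2.96. S100a8 (7.96) and S100a9 (6.75), the calgranulin pair, rested on few cells, as shown above. Mcpt8, a protease of basophils, was higher by 4.46 and rested largely on 2 cells described below. Csf3r, the receptor of granulocyte colony-stimulating factor, was at a median of 24.4 CPM in members and 26.8 in other cells, a log2 difference of -0.11 (SE 0.15).

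Genes of stem cells were lower in members, with log2 differences of -2.81 for the receptor gene Procr, -2.82 for Nupr1, -2.87 for Pdzk1ip1, -3.29 for Tinagl1, -2.77 for Trim47 and -2.37 for Nkx2-3. Ly6a was at 19.9 to 101 CPM in members and at 94.1 to 212 in other cells, a log2 difference of -1.83. Kit differed by -0.76 and Cd34 by 0.04 (SE 0.13). The antibody chain genes Igkc (-6.28), Ighm (-2.83), Ighg2b (-5.64) and Iglc1 (-5.72), and Jchain (-6.66), were also lower in members. Igkc in the other cells was at 6655 to 15292 CPM in the 4 libraries of batch 2 and CASIN replicate 2 and at 157 to 524 in the other libraries, while members had 0 to 291. Whether free antibody RNA or antibody-forming cells gave these values was not tested.

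Of all genes tested, 14.5% were past the threshold as higher and 24.7% as lower, which is the scale for the counts by list. By list, all 18 S phase genes (median log2 difference 0.89) and all 18 G2 and mitosis genes (1.17) were higher, and all 14 stem cell genes (-2.81) were lower, where the median of all genes was -0.16. Mki67 was at 142 ± 46.1 CPM in members and 80.8 ± 36.3 in other cells (SD, n = 9). These values of cycle genes are from members and other cells of unequal depth. Among the members, both cycle lists summed higher in the cells without Elane than in those of highest Elane, as given above. Of the azurophil granule list beyond the rule genes, 9 of 15 tested genes were higher and 3 lower, of the later granule list 13 of 15 were higher (median 6.02), and of the granulocyte transcription factors 7 of 12 were higher and 2 lower. Monocyte and dendritic genes were higher in 11 of 16 with none lower, basophil and mast cell genes in 7 of 10 with 2 lower, glycolysis and growth genes in 12 of 13 with none lower, and endoplasmic reticulum folding genes in 10 of 18 with 1 lower. Cytokine receptors were split, 4 higher and 4 lower of 12. The lists that were lower or split toward lower were lymphoid genes (9 of 12 lower), immediate early genes (7 of 16), interferon response genes (6 of 14), MHC class II genes (4 of 7), erythroid and megakaryocyte genes (5 of 12), mature lymphocyte genes (3 of 8 with 1 higher) and sort marker genes (5 of 9 with 1 higher), with none higher where no number is given. Cdc42, the target of CASIN, was at 402 ± 73.8 CPM in members and 371 ± 10.4 in other cells, a log2 difference of 0.10 (SE 0.07).

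**Figure D4:**
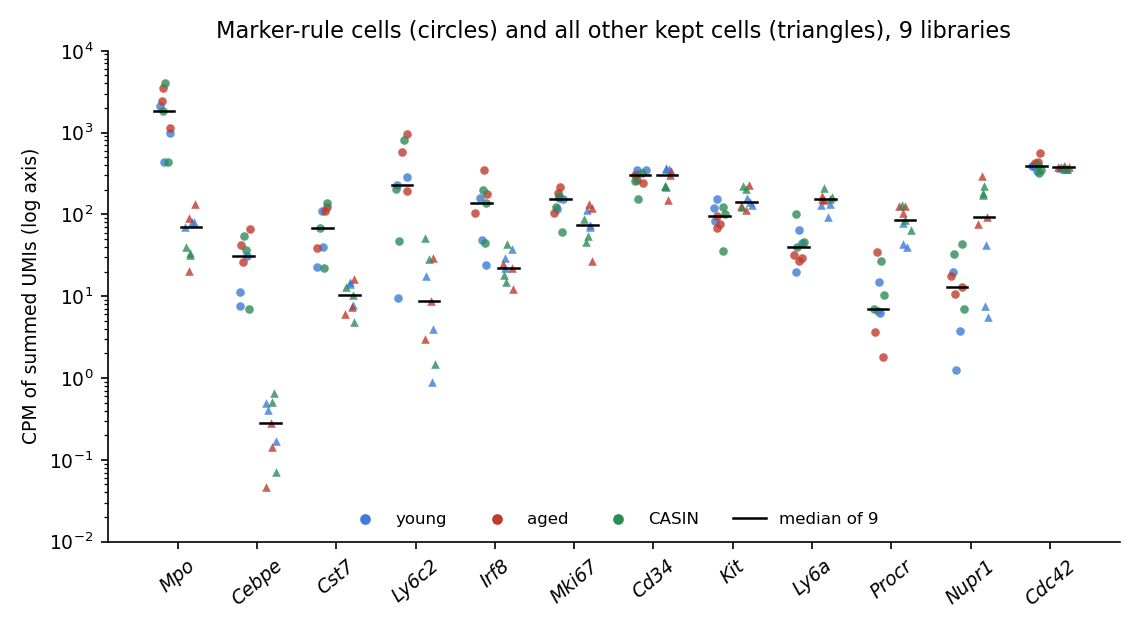
CPM of summed UMIs (vertical, logarithmic) of 12 genes in members (circles) and all other kept cells (triangles) of each of the 9 libraries, colored by group, with the median of 9 as a line. Mpo, Cebpe and Cst7 stand apart upward in members and Procr downward, Ly6c2 (upward) and Nupr1 (downward) have separate medians but overlapping libraries, and Cd34, Cdc42 and Kit lie close together.

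A gate on monocyte genes (at least 3 of Irf8, Csf1r, Ly86, Ctss and Klf4 detected, with at least 5 UMIs, members left out) held 454 other cells with a median of 19858 UMIs, near the depth of the members. This gate did not hold monocyte progenitors alone. Ighm was found in 92.95% of its cells, Ly6d in 17.8% and Ebf1, the B cell factor, in 8.37%, and Cebpe was found in 0.220% and Fcnb in 0.441%. Of 8587 genes tested with edgeR, 13.2% differed between members and this gate (5.79% higher and 7.44% lower in members), again as a description because both classes were cut by marker genes. Members had more S100a9 (log2 difference 8.75), S100a8 (8.66), Hp (4.55) and Mpo (3.52), more of the mast cell protease Cpa3 (5.61) and of Mcpt8 (3.95), and more F13a1 (3.16), Clec4e (2.77), Cd14 (2.39), Mgst1 (1.98), Dstn (1.91) and Msrb1 (1.88). A single cell of young replicate 3 held 69.1% of the Mcpt8 and 32.4% of the Cpa3 UMIs of all members. They had less of the lymphoid genes Ly6d (0 UMIs in all 9 libraries of members), Mzb1 (-8.28), Ebf1 (-6.76), Ighm (-3.86) and Dntt (-3.27). The antigen presentation genes Cd74 (-4.10), H2-Eb1 (-3.37), H2-Aa (-3.05) and H2-Ab1 (-2.07) were lower as well, as were Cox6a2 (-3.76), Plk2 (-2.50) and Myl10 (-2.49). Cebpe (6.83), Gfi1 (1.15) and Cebpa (0.60) were higher, Ly6a (-1.88) and Nr4a1 (-0.90) lower, and Csf3r (0.22), Cd34 (-0.29), Kit (0.29), Mki67 (0.44) and Cdc42 (-0.06) did not pass the threshold.

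Within the members, few genes differed between conditions. The 3 comparisons share libraries, whether the young, the aged or the CASIN ones. They were fitted together by edgeR on summed UMIs with a term for the sequencing batch. In sums of this kind, a change in which members were captured and a change of RNA per cell cannot be told apart. Of 6965 genes tested, 4 passed an adjusted p of 0.05 between aged and young, 0.0574%, all lower in aged, whereas 55 of 76 were higher in aged without a filter on low counts. They were Cd69, Ddit4, Slc7a11 and Prss34. At an unadjusted p under 0.05 there were 413 genes, 5.93%.

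Cd69, an activation antigen that holds lymphocytes in tissue, was at 135, 138 and 291 CPM in young members, at 44.3, 26.9 and 25.0 in aged members and at 122, 105 and 62.8 in CASIN members. The aged libraries were the 3 lowest, and the groups did not overlap, which was so for 3.80% of all genes tested in the direction of lower in aged. The log2 difference of aged from young was -2.56 (SE 0.34, adjusted p = 0.00414, edgeR, 3 against 3 libraries). A single young replicate 3 cell gave 91 of its library's 132 Cd69 UMIs, and without it that library was at 94.0 CPM. Without the 2 cells that carry Prss34, of which it is one, the difference was -1.68 (SE 0.21, edgeR adjusted p = 0.00233). The difference lost its call at a mitochondrial limit of 5% (edgeR adjusted p = 0.154), with a rule of 10 UMIs (0.0700) and without the batch term (0.452). In the other kept cells Cd69 was at 130, 182 and 39.8 in young and at 49.2, 45.0 and 55.0 in aged libraries, where the groups overlapped.
The CASIN members lay above the aged members in Cd69, by 1.73 on the log2 scale (SE 0.37), which did not pass (edgeR adjusted p = 0.351). Without the 2 Prss34 cells it was 1.35 (SE 0.22) and passed (edgeR adjusted p = 0.0218), as it also did without a filter on low counts (5.22e-08), without upper limits and low copies (0.0382) and without young replicate 3 (0.0431). The aged libraries are the same in both comparisons.

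Ddit4, a stress-induced inhibitor of mTORC1 signalling, was at 13.1, 6.22 and 201 CPM in young, at 1.84, 39.8 and 64.3 in aged and at 5.52, 10.2 and 101 in CASIN members. It was high in batch 2 in every group, and within each batch every young library lay above every aged library. In batch 1 the values rested on 7, 5 and 1 UMIs in young replicates 1 and 2 and aged replicate 1. The log2 difference of aged from young was -1.90 (SE 0.31, edgeR adjusted p = 0.0218). It lost its call without young replicate 3 (-1.32, edgeR adjusted p = 0.961) or aged replicate 2 (-1.57, 0.158), with DESeq2 (0.179) and without the batch term (edgeR adjusted p = 0.994). In the other cells Ddit4 followed the batches too, at 11.9, 13.5 and 161 CPM in young and 18.0, 114 and 119 in aged libraries. Slc7a11, the cystine transporter, passed as well (-2.20, SE 0.37, edgeR adjusted p = 0.0249) but rested on batch 2: it had 0 and 1 UMI in the young and 1 UMI in the aged members of batch 1, and it lost its call in 7 alternatives, among them young replicate 3 left out (edgeR adjusted p = 0.996). It lies outside the rule for named genes and is given because it is one of 4.

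Prss34, a protease of basophils, came from 2 cells in all and lost its call with DESeq2 (adjusted p = 1.00). A cell of young replicate 3 had 994 UMIs and a cell of young replicate 2 had 204, and no other member had any. The first cell had no Elane but 78 Ctsg and 23 Ms4a3 UMIs, and it carried 675 UMIs of Mcpt8, 152 of Cpa3, a mast cell and basophil peptidase, and the 91 of Cd69 named above. The second had 38 Elane, 96 Ctsg, 33 Ms4a3 and 163 Mcpt8 UMIs. With both cells left out, Prss34 was no longer tested, the log2 difference of Mcpt8 between aged and young turned from -4.73 to 0.35, and that of Cpa3 went from -2.92 to -0.32.

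Of the fixed genes, none passed between aged and young. Mpo was at 439, 975 and 2101 CPM in young and at 1143, 2451 and 3526 in aged members, which overlapped (log2 difference 0.59, SE 0.37, edgeR adjusted p = 0.856). Cebpe was at 7.50, 11.2 and 30.9 against 42.4, 25.9 and 66.1 (1.19, SE 0.56, edgeR adjusted p = 0.830). Irf8 differed by 1.01, Csf3r by 0.54, Gfi1 by 0.41, Cebpa by -0.13, Cd34 by -0.17, Kit by -0.43, Ly6a by -0.63 and Mki67 by -0.02, each with an edgeR adjusted p of 0.830 or above. Cdc42 was at 394, 386 and 340 CPM in young and at 424, 570 and 434 in aged members, which did not overlap, as for 3.23% of all genes in the direction of higher. Its difference was 0.34 (SE 0.16, edgeR adjusted p = 0.807). Among genes that did not pass but had the smallest p were the nuclear receptors of the immediate early response, Nr4a1 (69.4, 42.3 and 161 against 86.7, 556 and 339 CPM, log2 difference 1.28, edgeR adjusted p = 0.139) and Nr4a2 (9.38, 18.7 and 57.4 against 42.4, 171 and 120, 1.43, edgeR adjusted p = 0.119). The metallothionein Mt1 (2.42, edgeR adjusted p = 0.126) had 359 of its UMIs in 1 cell of aged replicate 3.

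By list, no list other than the basophil list (Prss34) held a gene that passed between aged and young. The later granule list had positive differences in all 11 tested genes (median 1.58, against 0.01 for all genes), and its sum over the members of aged replicate 3, 16176 CPM, held the cell of high S100a8 and Camp, and the groups overlapped (69.4, 309 and 3595 CPM in young against 1129, 1030 and 16176). Differences were positive for 11 of 13 monocyte and dendritic genes (median 1.04), 10 of 14 azurophil granule genes (0.22), 12 of 16 immediate early genes (0.51), 14 of 18 endoplasmic reticulum folding genes (0.31) and 16 of 18 S phase genes (0.21). They were negative for 5 of 7 stem cell genes (-0.48), 14 of 18 G2 and mitosis genes (-0.06) and all 6 tested basophil and mast cell genes (-3.83), the list that the 2 cells above carried. The sums of 2 of the 18 lists did not overlap: the basophil list, lower in aged, and the mature B, T and NK cell genes, at 416 to 718 CPM in aged against 346 to 362 in young. Of single genes, 3.23% did not overlap in the direction of higher in aged and 3.80% in that of lower. Without overlap, 3 against 3 libraries cannot reach a p under 0.1 in a two-sided exact permutation test. The remaining lists had medians between -0.14 (interferon response) and 0.36 (MHC class II and mature lymphocyte genes).

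Between CASIN and aged members 2 of 6965 genes passed, 0.0287%, and at an unadjusted p under 0.05 there were 329, 4.72%. Skil (SnoN), a brake on TGF-beta signalling, was at 27.7, 280 and 239 CPM in aged members and at 12.4, 8.95 and 65.5 in CASIN members. It was higher in batch 2 than in batch 1 in every group, and within each batch every CASIN library lay below every aged library. Young members were at 15.0, 16.2 and 185. The log2 difference of CASIN from aged was -1.74 (SE 0.26, edgeR adjusted p = 0.0103). It was lost without CASIN replicate 3 (-1.20, edgeR adjusted p = 0.778) or aged replicate 1 (-1.75, 0.0598), with a rule of 10 UMIs (0.0909) and without the batch term (0.977). In the other cells Skil was at 55.3, 691 and 545 in aged and 44.9, 41.8 and 470 in CASIN libraries. Smad7, the inhibitory Smad, was at 53.5, 160 and 105 against 26.2, 37.1 and 32.8 CPM, without overlap, as was so for 3.22% of all genes in this direction, and did not pass (-1.27, edgeR adjusted p = 0.592).

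The second gene, Thbs1 (thrombospondin 1), was higher in CASIN members (3.32, SE 0.28, edgeR adjusted p = 0.000124), but its UMIs came from batch 2 alone: aged members were at 0, 45.8 and 35.7 CPM and CASIN members at 0, 0 and 431. In CASIN replicate 3, 3 cells gave 70, 30 and 23 of its 158 UMIs, and without that library the log2 difference was -0.51. It also lost its call with DESeq2 and without the batch term. It too lies outside the rule for named genes. Dennd5b was lower in CASIN (-2.32, edgeR adjusted p = 0.0702) through aged replicate 1, at 350 CPM, where 1 cell held 101 UMIs. Gem (-1.65, edgeR adjusted p = 0.411) and the mitotic cyclin Ccnb2 (-1.04, edgeR adjusted p = 1) did not pass either.

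No gene of the G2 and mitosis list passed, and most of its members had lower values in CASIN than in aged members. In 17 of its 18 genes the log2 difference of CASIN from aged was negative, in 9 of them at an unadjusted p under 0.05 (4.72% of all genes in either direction), with a median log2 difference of -0.60 against -0.01 for all genes. Summed over the list, members were at 1817, 1512 and 1613 CPM in aged, at 1380, 1255 and 1204 in CASIN and at 2638, 2055 and 1196 in young libraries. Aged and CASIN did not overlap, while the young libraries spanned both, with young replicate 3 the lowest of the 9. The sums of 4 of the 18 lists did not overlap between CASIN and aged. The other 3 were higher in CASIN: interferon response genes at 476 to 688 CPM against 330 to 456 in aged, stem cell genes at 262 to 322 against 212 to 235, and basophil, mast cell and eosinophil genes at 137 to 211 against 76.8 to 113. Groups of 3 libraries without overlap cannot reach a p under 0.1 in a two-sided exact permutation test. Of single genes, 3.22% did not overlap in the direction of lower in CASIN. The share in the direction of higher is not given here, so the 3 lists higher in CASIN have no such scale. Against young, CASIN was lower in 17 of the 18 genes (median -0.57, 11 at an unadjusted p under 0.05, against 6.04% of all genes in either direction, none passed). The CASIN libraries are the same in both comparisons, so these counts are not independent. Of the single genes, Mki67 differed by -0.32 from aged and -0.34 from young (SE 0.23 and 0.22, edgeR adjusted p = 1 and 0.863). S phase genes did not follow (median -0.04 against aged and 0.17 against young).
Differences of CASIN from aged were also negative for 14 of 18 endoplasmic reticulum folding genes (median -0.37), 13 of 16 immediate early genes (-0.24), 8 of 11 later granule genes (-0.34) and 10 of 13 monocyte and dendritic genes (-0.40). Azurophil granule genes were split, 8 positive and 6 negative (0.02). Differences were positive for all 6 tested basophil genes (1.44) and all 7 tested stem cell genes (0.23). None of these lists held a gene that passed, and the other lists had medians between -0.44 and 0.16.

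Of the fixed genes, Cdc42 was at 345, 322 and 407 CPM in CASIN members against 424, 570 and 434 in aged members, and the groups did not overlap, as for 3.22% of all genes in the direction of lower (-0.39, SE 0.15, edgeR adjusted p = 1). In the other cells Cdc42 lay between 357 and 388 CPM in all 9 libraries. Nr4a1 was at 96.6, 65.2 and 186 in CASIN members (-0.80 from aged, SE 0.27, edgeR adjusted p = 1), and Ly6a differed by 1.01 (SE 0.39). Mpo (0.23), Cebpa (-0.03), Cebpe (-0.17), Gfi1 (-0.30), Irf8 (-0.54), Csf3r (-0.09), Cd34 (-0.26) and Kit (0.10) did not pass, all with an edgeR adjusted p of 1.

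Between CASIN and young members 2 of 6965 genes passed, 0.0287% (6.04% at an unadjusted p under 0.05), and they were again Prss34, from the 2 young cells, and Thbs1 (4.08, SE 0.40, edgeR adjusted p = 0.000973), from CASIN replicate 3, without which the difference was 0.27. Prss34 (edgeR adjusted p = 0.0401) lost its call in 8 alternatives, among them each CASIN library left out in turn, and Thbs1 in 6, among them DESeq2, no batch term and young replicate 3 left out. The genes with the smallest p among those that did not pass were largely of mitosis: Nusap1 (199, 167 and 66.2 CPM in young, 91.1, 83.1 and 46.4 in CASIN, log2 difference -0.92), Cenpa (-0.97) and Hmmr (-1.33), beside Rgs1 (-1.13) and Nr4a2 (1.33), with edgeR adjusted p of 0.364 to 0.387. These sat within overlapping groups for Nusap1, and for Cenpa the groups, 195, 199 and 148 against 66.3, 111 and 95.6 CPM, did not overlap, as for 3.82% of all genes in this direction. Of the fixed genes Mpo was highest in CASIN replicate 3 and differed by 0.81 (SE 0.36, edgeR adjusted p = 0.805), Cebpe by 1.01, Irf8 by 0.47, Csf3r by 0.45, Nr4a1 by 0.48, Ly6a by 0.38, Gfi1 by 0.11, Cebpa by -0.16, Kit by -0.32, Cd34 by -0.43 and Cdc42 by -0.05, none of which passed. Differences were positive for all 13 tested monocyte and dendritic genes (median 0.57), 10 of 11 later granule genes (0.75), 10 of 14 azurophil granule genes (0.13) and 10 of 12 granulocyte transcription factors (0.15), and no gene of these lists passed. The other lists had medians between -0.45 and 0.33, except the basophil list (-1.69). The median of all genes is not given for CASIN against young, so these counts by list have no such scale.

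Whether the members changed unlike the other kept cells of their libraries was also tested. edgeR called 102 of 13578 genes (0.751%) between aged and young, 34 (0.25%) between CASIN and aged and 101 (0.744%) between CASIN and young. A limma test on the differences within libraries called 1 of 11576 genes (0.00864%), Jund, between aged and young, and none in the comparisons with CASIN, where 647 and 1023 genes had an unadjusted p under 0.05 by limma. Jund, an AP-1 factor, was at 664, 461 and 1101 CPM in young and 483, 1108 and 1154 in aged members, which overlapped. In the other cells Jund was at 833, 859 and 616 CPM in young and 1700, 1224 and 1247 in aged libraries.

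**Figure D5:**
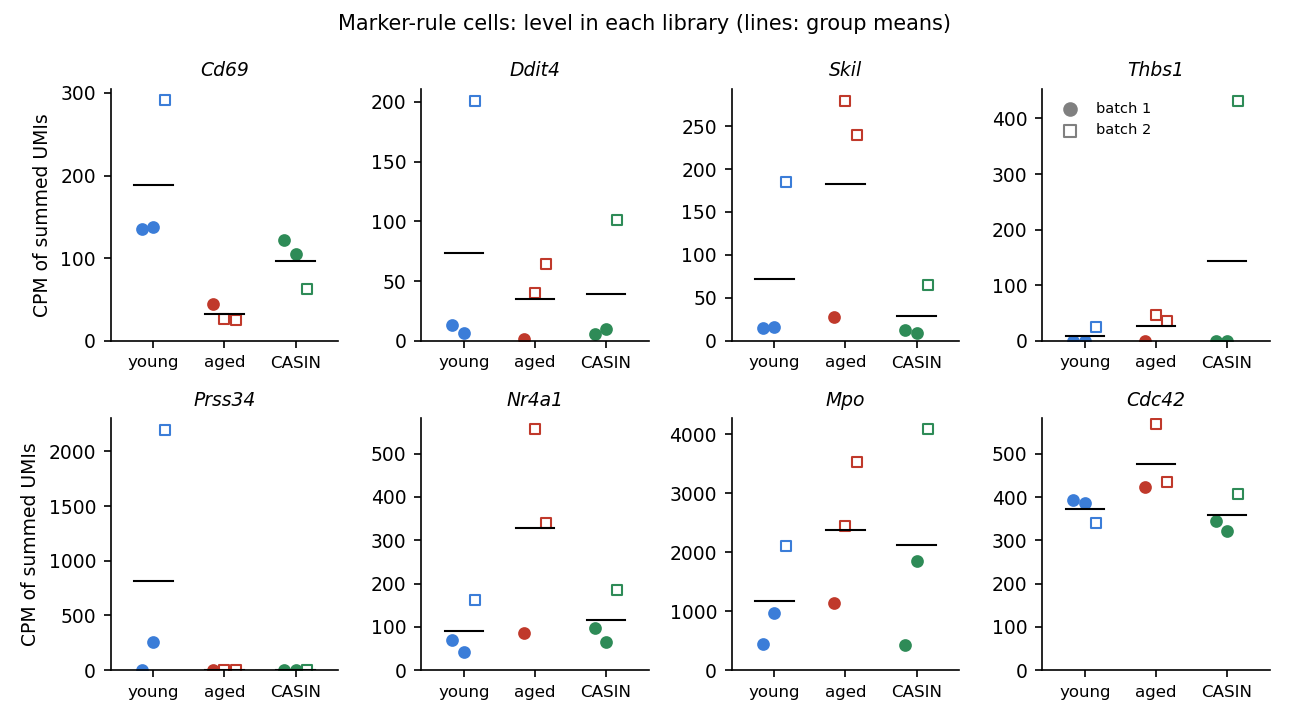
CPM of summed UMIs (vertical, from 0) of 8 genes in the members of each library, by group, with batch 1 as filled circles, batch 2 as open squares and the group mean as a line. Cd69 is lowest in the 3 aged libraries, Ddit4 and Skil follow the batch, and Thbs1 and Prss34 rest on 1 library or 2 cells.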

How the data were processed

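Single LSK cells of 3 young, 3 aged and 3 CASIN samples were sequenced, 1 library a sample. The authors deposited UMI counts per gene and barcode, made with Cell Ranger 3.1.0 on mm10 (GRCm38) for the barcodes that it called as cells. The values are whole counts without normalization. The antibody-tag libraries were not analysed here. Of 32387 barcodes, 15975 passed the limits given in the report. The members and the 18 gene lists were chosen with earlier results of these data known.

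UMIs of members and of other cells were summed per library. Sums were compared with edgeR 4.0.16 in R 4.3.3 (quasi-likelihood test, TMM normalization, filterByExpr) over all 9 libraries with a batch term, at a threshold of 0.05 after Benjamini-Hochberg adjustment over all genes tested. Every adjusted p in the text comes from this fit unless another tool is named. CPM were computed on the same sums. The test for shares of 3 against 3 libraries was an exact permutation test, two-sided. A limit for 0 UMIs is the level that 3 UMIs would give. Sequences come from RefSeq tables of GRCm38.p6.

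Genes were named by rule. Between conditions these were the genes with the largest change among those passing, with at least 20 CPM and the same direction in both batches, or, where under 5 passed, also the 5 with the smallest p. Against other cells they were up to 12 each way with at least 50 CPM and the same direction in every library. Mpo, Cebpa, Cebpe, Gfi1, Irf8, Csf3r, Ly6a, Cd34, Kit, Mki67, Nr4a1 and Cdc42 were fixed. Predicted and mitochondrial genes were passed over, and a gene that the rule named is not reported here.

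The fits were tested on simulated data. Alternatives were DESeq2 1.42.0, its size factors, no filter, a block for the replicate number, no batch term, fits of only the groups compared, other limits and rules, thinned cells, Scrublet doublets (scanpy 1.11.5) left out and each library left out in turn, and, chosen after the data were seen, low copies or the cells with Prss34 left out, both Elane required and low copies left out, no upper limits with low copies left out, and limma 3.58.1 on differences within libraries. Cells were counted with pandas 2.3.3, scipy 1.17.1 and numpy 2.4.6 in Python 3.11.15, and plots made with matplotlib 3.10.9.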

Additional observations from a re-analysis of the deposited data

Results flagged for a closer look

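Changes between conditions were compared between the members and the other kept cells of the same libraries. By edgeR, 102 of 13578 genes (0.751%) changed differently in members between aged and young, 34 (0.25%) between CASIN and aged and 101 (0.744%) between CASIN and young. The edgeR fit gives both kinds of sum the same spread, although the sums of members hold far fewer cells. A limma test on differences within libraries called 1, 0 and 0 of 11576 genes, with 918, 647 and 1023 at an unadjusted p under 0.05. The 1 gene was Jund. Its levels are given above. The log2 difference between both changes was -1.08 (SE 0.13, limma adjusted p = 0.0203), and it had an adjusted p of 0.0276 by limma without low copies.

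Over all deposited barcodes, 172 met the marker rule outside the limits on cells: 70 had more than 40000 UMIs, 4 only too many genes, 59 too many mitochondrial UMIs and 39 fewer than 1000 UMIs. Without low copies, 74 barcodes lay above the upper limits, with a median of 50224 UMIs. Of these, 29 had at least 50 Elane UMIs per 10000 and 10 had no Elane, whereas 26 of the 235 members within the limits were that high. By library the 29 were 0, 1 and 8 in young, 1, 8 and 2 in aged and 5, 1 and 3 in CASIN, so that CASIN replicate 1, with none within the limits, had 5 above them. Whether these barcodes are single large cells or doublets was not tested.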

How the results depend on the processing

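These results are limited by 3 libraries a group in 2 batches, by 15 to 45 members a library and by few Elane-rich cells. Low copies and the upper UMI limit decide which of them are counted.

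The share difference between CASIN and aged changed sign when cells were thinned to 4000 (-0.157) or 2000 UMIs (-0.184), with a mitochondrial limit of 5% (-1.18), all 4 genes required (-0.162), low copies left out (-0.0236), low copies left out and Elane required (-0.293) or at least 10 Elane UMIs per 10000 required (-0.199), within batch 2 (-1.30) and as the mean of both batches (-0.272). Aged minus young went from 0.270 to 1.58 percentage points at the 5% limit (exact permutation p = 0.4), where aged replicate 2 was at 6.35%. CASIN minus young changed sign within batch 2 (-0.953) and as the mean of both batches (-0.0153). With each library left out in turn, the 3 differences ran from -0.0346 (without aged replicate 2) to 0.530 for aged minus young, -0.319 (without CASIN replicate 1) to 0.671 for CASIN minus aged and -0.0489 to 0.941 for CASIN minus young.

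Genes passing between aged and young (4), CASIN and aged (2) and CASIN and young (2) were 1, 1 and 0 with DESeq2 (159, 100 and 139 at an unadjusted p under 0.05), 76, 38 and 55 without a filter, 0, 0 and 0 without the batch term and 19, 5 and 2 without upper limits and low copies. Of those between aged and young, 55 of 76, 13 of 19 and, with the replicate number as a block, 18 of 24 were higher in aged, against 0 of 4. They were 8 for aged and young with only these groups, 2 and 0 for the comparisons with young at a mitochondrial limit of 5%, and for CASIN and young 1 with a rule of 10 UMIs and 1 without the Prss34 cells. Leaving out libraries gave 2 to 8, 0 to 5 and 0 to 3. Thinning to 4000 UMIs left too few cells for these fits and for the monocyte gate.

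With the replicate number as a block, 24, 11 and 5 genes passed, and Ddit4 between aged and young did not (edgeR adjusted p = 0.0782). The numbers do not pair the samples: in the same batch, same-numbered samples correlated by 0.420 to 0.652 and others by 0.265 to 0.555, and in different batches same-numbered samples by -0.463 and -0.357. The exact p of the shares with the block was 0.5, 0.75 and 0.75, and 0.25 is the smallest it can give.

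Different changes in members and other cells (102, 34 and 101 genes) were 8, 0 and 4 with DESeq2, 14, 0 and 1 without a class-by-batch term, 1, 0 and 2 after thinning, and 1, 0 and 0 by limma with and without low copies, and 28 to 178, 28 to 54 and 29 to 125 with libraries left out. Members differed from other cells in 3157 genes in place of 5324 after thinning (4573 to 5498 with libraries left out), and from the monocyte gate in place of 1136 in 683 with DESeq2, 2102 without upper limits and low copies, 733 and 676 by limma with and without low copies (816 to 1234 with libraries left out). Mcpt8 between aged and young turned to 0.35 without the Prss34 cells, and Thbs1 between CASIN and aged ran from -0.51, without CASIN replicate 3, to 3.50 with libraries left out. Where no value shows it, the cause of a change was not tested.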
